A study of Mus musculus with 43 samples.

Results

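The serpins are a family of proteins that share a single fold, and most of them inhibit proteases. In the deposited table of read counts, 63 of 56748 genes carried a symbol beginning with Serpin and the protein-coding biotype, and these 63 genes are described here. By the letter of the symbol, 24 belonged to clade A, 28 to clade B and 11 to clades C to I. After the filter on low counts 34 of the 63 were tested, of 20218 genes tested in all: 15 of clade A, 11 of clade B and 8 of clades C to I.

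RNA was measured by poly(A)-selected, strand-marking RNA-seq in epididymal white adipose tissue, a visceral fat pad of the male mouse, in 43 libraries. The SD group (n = 7) was fed a diet with 10% fat. The HFD group (n = 10) was fed a diet with 60% fat, and 3 more groups were fed that diet and given SZ-A at 200 (n = 9), 400 (n = 8) or 600 (n = 9) mg/kg/day. SZ-A is the alkaloid preparation of Ramulus Mori (Sangzhi), mulberry twig, used as a drug against diabetes, and the study's title concerns its effect on obesity, the browning of white fat and heat production in brown fat. The labels give the diet with 60% fat less carbohydrate than the SD diet and the same share of protein. The sources do not give strain, age or length of feeding. The labels call the libraries of a group replicate biosamples and do not name the animals, so a p-value measures the spread between these libraries.

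An inhibitory serpin presents a flexible reactive centre loop as bait. When the target protease cuts the loop, the serpin changes shape and traps the protease in a covalent complex, so the letters of the loop set which protease is caught. Clade A serpins are mostly secreted by liver into plasma, clade B serpins mostly stay inside cells and guard them against leukocyte and lysosomal proteases, and clades C to I hold inhibitors of clotting, fibrinolysis and complement beside members that inhibit nothing, such as Serpinh1 and Serpinf1. In obese fat, serpins are studied as adipokines (Serpina12, Serpinf1) and as products of the macrophages that enter the tissue.

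Libraries held 32.7 to 44.3 times 1e6 counts (median 37.6). Mature adipocyte markers were present in every group, with a summed level of 20938 counts per 1e6 counts (CPM) as the SD median and 9999 as the HFD median, so the labelled tissue matched its markers. There were 4 libraries with many genes of other tissue at high level. In SD 4 and SZ-A 600 6 the summed markers of ciliated duct epithelium stood at 497 and 807 CPM, in SZ-A 400 3 those of squamous epithelium at 10426 CPM, and in SZ-A 400 6 those of the vas deferens and epididymal duct at 22289 CPM. The libraries also fell into 2 sets by their share of small noncoding RNA counts, set 1 with 22 libraries (2 of SD and 5 of each other group) and set 2 with 21; the labels name no batch. In bulk tissue, fewer cells of a type and less RNA per cell cannot be told apart.

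Levels between genes were compared per gene length, in the authors' deposited FPKM. By median over all 43 libraries, Serping1, the C1 inhibitor of complement and the contact system, was highest at 182 FPKM. It was followed by Serpina3n, a mouse relative of antichymotrypsin, at 155 FPKM, and by Serpinh1, the collagen chaperone Hsp47 of the endoplasmic reticulum, at 141 FPKM. Serpinf1, the secreted pigment epithelium-derived factor, had a median of 93.7 FPKM, and Serpina3c, another copy of the mouse Serpina3 cluster, 58.2 FPKM. Serpinb6a, an intracellular inhibitor of trypsin-like and chymotrypsin-like proteases, stood at 42.9 FPKM. Serpinb9, which inhibits granzyme B, was lower at 10.4 FPKM. Over the 43 libraries the FPKM ranges of neighbours among these 7 genes overlapped.

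**Figure D1:**
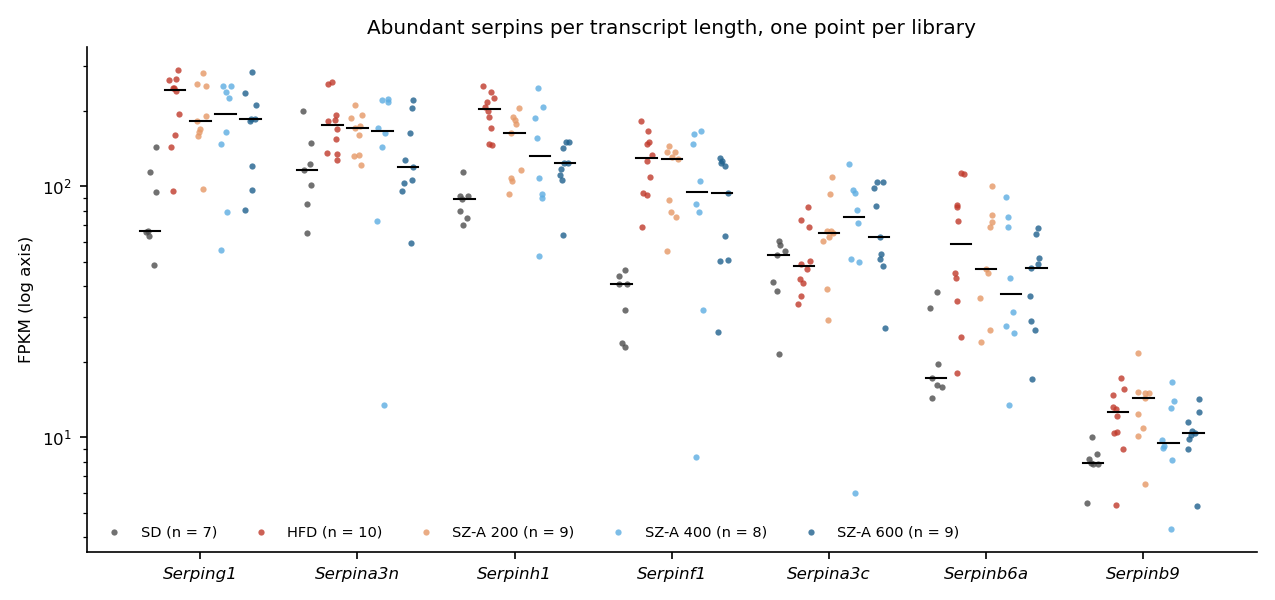
Deposited FPKM (log axis) of 7 abundant serpins in the order of their median over 43 libraries, 1 point per library coloured by group, with group medians as black bars. Serping1, Serpinh1 and Serpinf1 lie lower in SD libraries than in most HFD libraries, and Serpina3c overlaps between those groups, with 3 of 10 HFD libraries above all SD libraries.

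Some members were seen in almost no library. No count was recorded in any library for 7 of the 63: Serpinb3a, Serpinb3c, Serpinb3d, Serpinb9f, Serpinb9g, Serpinb9h and Serpini2. Of the 29 members not tested, the 5 with the highest level in a single library were high in libraries of the SZ-A 400 group. Serpina1f reached 1935 CPM and Serpina16 78.2 CPM in SZ-A 400 6, the library with duct markers. Serpinb5 (maspin, an epithelial serpin) reached 27.6 CPM and Serpinb11 0.879 CPM in SZ-A 400 3, the library with squamous markers. Serpina12, the adipokine vaspin, reached 0.652 CPM in SZ-A 400 5, with a median of 0.0522 CPM over all libraries, so its level was close to the limit of detection at this depth. Serpind1, heparin cofactor II of plasma, was also untested, with at most 0.494 CPM in any library. Among the untested members, 3 (Serpina1f, Serpina16 and Serpinb5) exceeded 1 CPM in any library.

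The first comparison, HFD against SD, measured how the family differed between groups whose diets differed in carbohydrate as well as fat. The parts of fat and carbohydrate were not separated. SD and HFD libraries were also divided in different shares over the library sets, and fits by set follow in the next paragraph. Of 34 tested serpins 11 rose and 2 fell (edgeR quasi-likelihood test, Benjamini-Hochberg adjusted p under 0.05 over all genes), and 16 had an unadjusted p under 0.05. Over all tested genes 18.4% were called higher and 13.3% lower in this comparison. The clades differed in their counts: 8 of 11 tested clade B genes rose and 0 fell, 3 of 8 in clades C to I rose and 0 fell, and 0 of 15 in clade A rose and 2 fell. The median log2 fold change was 1.42 in clade B, -0.20 in clades C to I and -0.28 in clade A, beside -0.05 over all tested genes. In clade A 5 of 15 had an unadjusted p under 0.05, and no difference between clades was tested. Serpinb9b, Serpinb1c and Serpinb12 had few or no counts in SD and passed the filter on low counts through the high-fat groups. Once tested they could hardly fall, and they are part of the clade B count and median. In clade A, Serpina3j had few or no counts in HFD and passed the filter through libraries of other groups. Once tested it could hardly rise, and it is part of the clade A count and median.

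Within library set 1, which holds SD 1 and SD 2 as its only SD libraries, 12 serpins rose and 7 fell, beside 17.5% of all genes higher and 18.8% lower. Within set 2 alone Serpinb12 and Serpinh1 rose and 0 fell (all genes 0.925% and 0.669%), and with SD 4 and the other libraries with RNA of other tissue also left out of set 2, 8 rose: Serpinb9b, Serpinb1c, Serpinb12, Serpinb6b, Serpinb6a, Serpinf1, Serping1 and Serpinh1 (all genes 6.10% higher and 3.56% lower). With the set as a term in the fit of all libraries, 12 rose, among them all 11 of the undivided fit, and 2 fell (all genes 20.2% and 15.1%). Values within sets are given below in the order set 1, set 2.

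**Figure D2:**
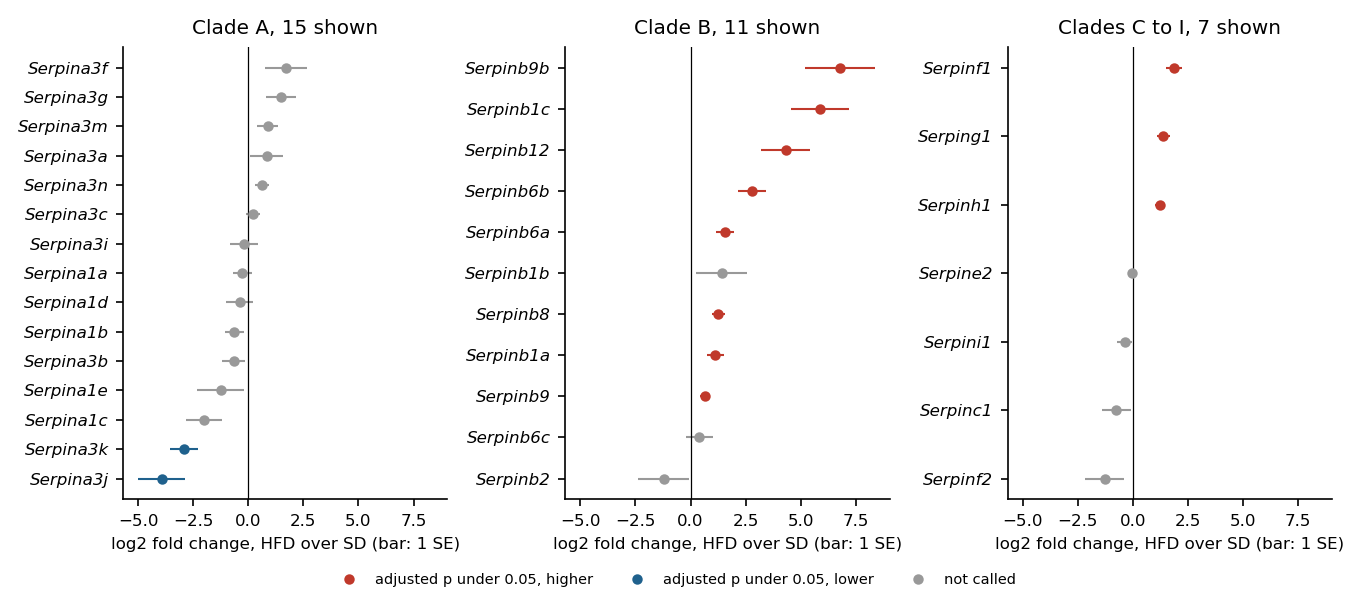
Log2 fold change of HFD over SD with 1 standard error for 33 of the 34 tested serpins, in panels by clade (A, B and C to I), with called genes marked. In clade B 10 of 11 genes lie above 0 and 8 are called, whereas in clade A the 2 called genes, Serpina3j and Serpina3k, lie below 0.

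The largest rises were in clade B, and the first pair of them are copies of genes with a better known relative. Serpinb9b is a mouse paralog of Serpinb9, the granzyme B inhibitor, and Serpinb1c a paralog of Serpinb1a, which inhibits neutrophil elastase, cathepsin G and proteinase 3. Because the loop decides the target, the coding bases of the loop of each pair are printed from the conserved hinge to the conserved stretch after the loop, read from GENCODE M21 transcripts (GRCm38), 5′ to 3′. Capitals mark bases that are not matched in the alignment with the other gene of the pair.
Serpinb9: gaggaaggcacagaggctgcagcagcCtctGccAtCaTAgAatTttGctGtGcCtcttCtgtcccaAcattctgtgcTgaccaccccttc
Serpinb9b: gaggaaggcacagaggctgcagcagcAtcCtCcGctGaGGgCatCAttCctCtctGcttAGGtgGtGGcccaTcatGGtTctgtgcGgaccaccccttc
Serpinb1a: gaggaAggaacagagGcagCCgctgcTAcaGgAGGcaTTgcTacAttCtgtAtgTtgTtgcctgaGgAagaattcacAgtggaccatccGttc
Serpinb1c: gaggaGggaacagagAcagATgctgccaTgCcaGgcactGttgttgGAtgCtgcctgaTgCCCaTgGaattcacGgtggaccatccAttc
In the Serpinb9 pair the capitals lie between the hinge at the left and the conserved end at the right, and in the Serpinb1a pair some also fall within the hinge and the end. The loop stretch of Serpinb9b spans 33 codons against 30 in Serpinb9, with 75 bases matched, and that of Serpinb1c spans 30 codons against 31 in Serpinb1a, with 71 bases matched. Over the whole coding sequence Serpinb9 and Serpinb9b were 85.7% identical and Serpinb1a and Serpinb1c 88.5%. None of the tested clade B genes shared a window of 150 bases (0.0%) with another serpin transcript, so 150-base reads of these genes differ between copies.

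Serpinb9b (chr13:33211399-33225867 as the files give it) had the largest fitted rise of the family on the high-fat diet. Its level ranged from 0 to 0.349 CPM in SD with a median of 0.165, and from 0 to 66.6 CPM in HFD with a median of 10.6. The groups overlapped through HFD 8, at 0, while 9 of 10 HFD libraries stood above the highest SD library. This was a log2 fold change of 6.79 (SE 1.58, adjusted p = 0.00145), with 6.72 and 5.76 within the library sets. The high HFD libraries were HFD 3 and HFD 4, at 47.4 and 66.6 CPM, and the lowest after HFD 8 was HFD 10 at 0.418 CPM.

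Serpinb1c followed a similar course at a lower level. It had no count in 4 of 7 SD libraries and at most 0.262 CPM in the others, against a median of 3.20 CPM and a highest value of 8.00 CPM in HFD. HFD 8 was again at 0 and 8 of 10 HFD libraries lay above all SD libraries. Its rise amounted to a log2 fold change of 5.87 (SE 1.32, adjusted p = 0.00114), with 5.09 in set 1 and 5.94 in set 2. The size of this value depended on SD 2, without which it was 7.09.

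Serpinb12, a reported inhibitor of trypsin-like proteases, was at 0 in 6 of 7 SD libraries and at 0.495 CPM in SD 1. In HFD its median was 1.54 CPM and its highest value 3.14 CPM. It rose by a log2 fold change of 4.31 (SE 1.12, adjusted p = 0.0036), and 7 of 10 HFD libraries lay above SD 1. This value rests on SD 1, since without that library the fold change was 8.78, and the within-set values were 3.12 and 7.62, of which only the second was called. SD 1 also had the highest squamous marker sum of the SD group (11.9 CPM, group median 2.51). Its sum of vas deferens and epididymal duct markers was 31.5 CPM (group median 0.545). The part of such cells in its Serpinb12 level was not tested.

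Serpinb6b and Serpinb6a are mouse relatives of human SERPINB6, an inhibitor of cathepsin G. Serpinb6b ranged from 3.30 to 11.4 CPM in SD (median 4.67) and from 5.02 to 74.6 CPM in HFD (median 40.6), with a log2 fold change of 2.80 (SE 0.64, adjusted p = 0.00123). Serpinb6a ranged from 74.5 to 204.5 CPM in SD (median 91.6) and from 97.1 to 617 CPM in HFD (median 325), with a log2 fold change of 1.57 (SE 0.39, adjusted p = 0.00268). In Serpinb6b 8 of 10 HFD libraries lay above every SD library, and in Serpinb6a 7 of 10. Within the sets the changes were 3.22 and 1.67 for Serpinb6b and 1.37 and 1.03 for Serpinb6a. The relative of both, Serpinb6c, had a change of 0.40 that was not called.

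Serpinb8, an intracellular inhibitor of furin-like proteases, lay within a narrow band in SD, 8.91 to 11.5 CPM around a median of 9.36. In HFD it ranged from 8.42 to 36.0 CPM with a median of 26.2. All but HFD 8, which fell below every SD library, stood above the SD group. Its log2 fold change was 1.26 (SE 0.31, adjusted p = 0.00223), and 1.56 and 0.82 within the sets.

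The better known relatives moved less. Serpinb9 rose from a median of 26.9 to 44.8 CPM, with a fold change of 0.65 on the log2 scale (SE 0.23, adjusted p = 0.0268), and Serpinb1a from 2.99 to 9.00 CPM (1.13, SE 0.39, adjusted p = 0.0262). Per gene length, Serpinb9 nevertheless had a higher median than Serpinb9b over all libraries, 10.4 against 1.22 FPKM, and Serpinb1a stood at 2.21 FPKM. Serpinb9b was below Serpinb9 in most libraries but not in all. It was above Serpinb9 in SZ-A 400 2 (37.3 against 16.6 FPKM) and HFD 4 (19.6 against 17.2 FPKM), for example. HFD libraries above the highest SD library numbered 8 of 10 for Serpinb9 and 4 of 10 for Serpinb1a. Both calls depended on single libraries: Serpinb9 lost its call without SD 6 or HFD 4 (0.58 at the lowest), and Serpinb1a without SD 3, SD 5, SD 6, SD 7, HFD 3 or HFD 4 (1.02 at the lowest). Within the sets Serpinb9 changed by 0.66 and 0.37 and Serpinb1a by 1.5 and 0.57. Serpinb1b, the remaining copy of that group, had a fold change of 1.42 with an SE of 1.16 and was not called.

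Markers of other cell types moved with the clade B genes. The 14 macrophage markers summed to 564 to 1446 CPM in SD (median 689) and to 1067 to 13373 CPM in HFD (median 8581), and 13 of the 14 rose with a median log2 fold change of 3.14; none of them was at 0 throughout a group. HFD 8, the library with no Serpinb9b, Serpinb1c or Serpinb12 count, had the lowest macrophage sum of its group and the highest mature adipocyte sum, 37450 CPM. Of 6 mast cell markers 1 rose, with a median of 2.15. The 6 libraries with the most Serpinb9b all had mast cell sums above the highest SD sum, 61.4 CPM. SZ-A 400 2 held 127 CPM of Serpinb9b and a mast cell sum of 269 CPM, SZ-A 200 7 held 104 and 630 CPM, SZ-A 600 1 held 66.7 and 96.2 CPM, HFD 4 held 66.6 and 216 CPM, SZ-A 600 4 held 65.5 and 158 CPM, and HFD 3 held 47.4 and 307 CPM. The macrophage sums of these 6 libraries, 5592 to 13373 CPM, were also above the highest SD sum, 1446 CPM. Other libraries with mast cell sums above 61.4 CPM held at most 16.0 CPM of Serpinb9b, in HFD 6 with a mast cell sum of 137 CPM. The part of macrophages and mast cells in the serpin changes was not tested.

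**Figure D3:**
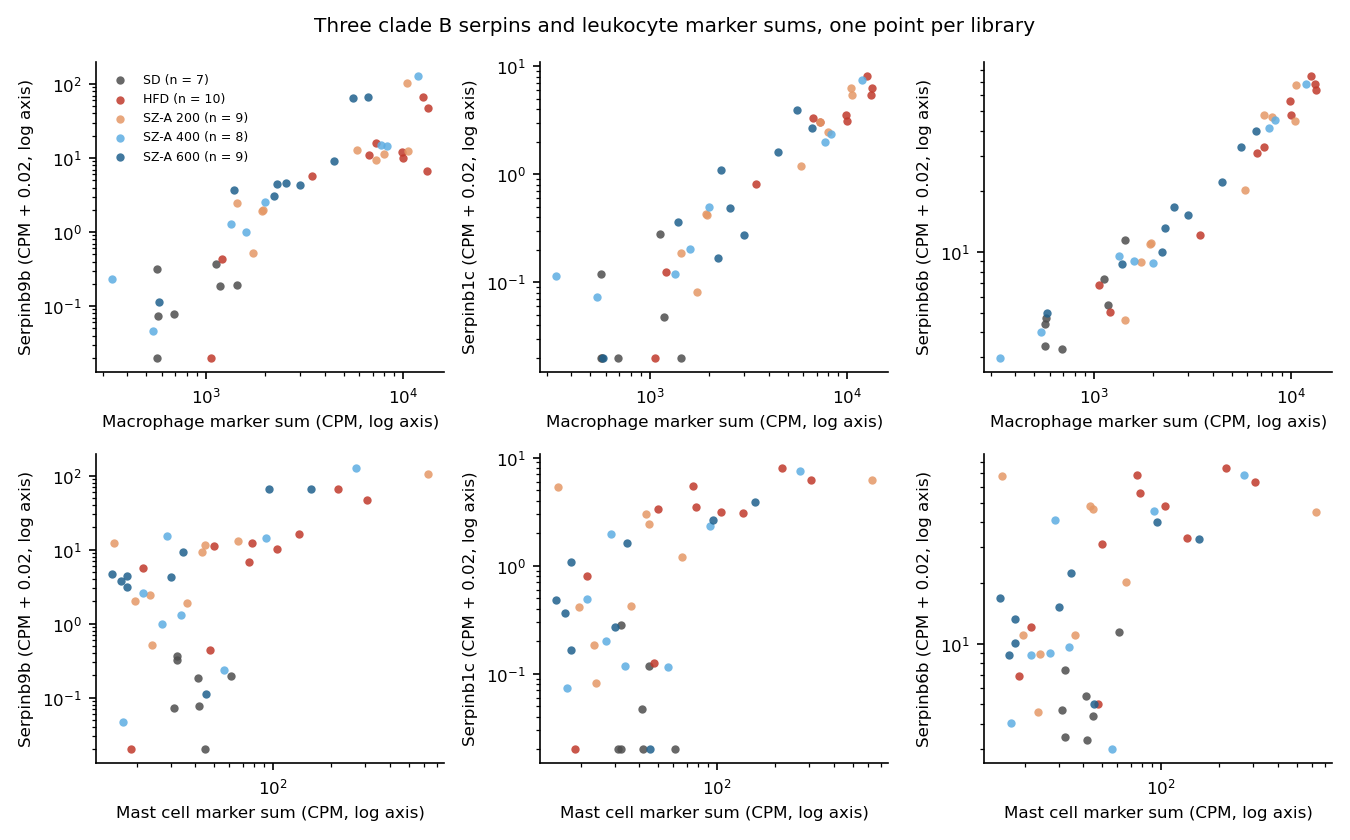
Serpinb9b, Serpinb1c and Serpinb6b in CPM (log axis, 0.02 added) against the summed CPM of macrophage and of mast cell markers, 1 point per library coloured by group. Libraries with low macrophage sums, the SD group and HFD 8 among them, hold the lowest levels of these genes. The highest Serpinb9b values lie at high mast cell sums and at high macrophage sums.

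Outside clade B, 3 abundant serpins rose on the high-fat diet. Serpinh1, the chaperone that procollagen needs to fold, ranged from 167 to 269 CPM in SD (median 208) and from 356 to 631 CPM in HFD (median 501). The groups did not overlap. Serpinf1, a secreted factor that limits vessel growth, ranged from 51.9 to 105 CPM in SD (median 91.4) and from 162 to 446 CPM in HFD (median 308), also with no overlap. Serpinh1 and Serpinf1 were the only 2 of the 34 tested serpins whose HFD libraries all lay above the SD libraries, beside 1.61% of all tested genes, and in none did they all lie below (0.895% of all genes). The log2 fold change of Serpinh1 was 1.24 (SE 0.23, adjusted p = 0.000311) and that of Serpinf1 1.88 (SE 0.38, adjusted p = 0.000432). Within the sets Serpinh1 changed by 1.23 and 1.09 and Serpinf1 by 1.85 and 1.60, and Serpinh1 kept its call in each of the 14 alternative analyses and in each of the 17 fits that left out 1 library.

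Serping1 rose from a median of 150 CPM (108.5 to 318) to 569 CPM (222 to 686), and 9 of 10 HFD libraries lay above the highest SD library. Its log2 fold change was 1.39 (SE 0.30, adjusted p = 0.000756), and 1.30 and 1.15 within the sets. The summed fibroblast markers also moved, from a median of 1179 CPM in SD to 4949 CPM in HFD, with 3 of 7 markers called higher. The part of fibroblasts in the rises of Serpinh1, Serpinf1 and Serping1 was not tested.

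Other named members of clades C to I were not called. Serpine2, protease nexin 1, which inhibits thrombin and urokinase, had medians of 65.4 and 68.0 CPM and a change of -0.05 (SE 0.17). The plasma inhibitors were near the limit of detection in this fat pad: Serpinc1 (antithrombin) had group medians of 0.987 CPM in SD and 0.428 CPM in HFD, Serpinf2 (the inhibitor of plasmin) 0.271 and 0.131 CPM, and neither was called. Serpini1 (neuroserpin), at 0.921 and 0.711 CPM, was not called either.

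In clade A the 2 calls were falls of low genes. Serpina3k, a plasma serpin made by liver, ranged from 0.840 to 11.3 CPM in SD (median 1.73) and from 0.140 to 1.32 CPM in HFD (median 0.538). SD 1, SD 2 and SD 6 were the high libraries, at 11.3, 9.13 and 7.34 CPM, and 8 of 10 HFD libraries lay below the lowest SD library. The log2 fold change was -2.90 (SE 0.64, adjusted p = 0.000905), and -3.75 and -2.44 within the sets. Serpina3j was at 0 in 8 of 10 HFD libraries and at 0.131 to 2.58 CPM in SD, with a log2 fold change of -3.93 (SE 1.08, adjusted p = 0.00566). It was -2.86 without SD 6 and further from 0 without HFD 8 or HFD 10, down to -4.86, and called each time. The highest SD value, in SD 6, was far from the others, which reached 0.440 CPM. The summed liver cell markers were at a median of 18.5 CPM in SD, with 89.1 CPM in SD 1, and at 6.24 CPM in HFD, and 2 of 6 fell; their part in the falls was not tested. Serpina3k and Serpina3m start at the same base in the annotation on the same strand and are 91.2% identical, with 0.3% of their 150-base windows shared. No source used here says how reads in the overlap of the 2 genes were counted.

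The abundant clade A genes, Serpina3n and Serpina3c, were not called, which does not show that they were unchanged. Serpina3n ranged from 128 to 398 CPM in SD (median 239) and from 262.5 to 548 CPM in HFD (median 366), a log2 change of 0.63 (SE 0.31, adjusted p = 0.109) that was not called. Serpina3c had medians of 118 and 108 CPM and a change of 0.21 (SE 0.33). Serpina3g, a cross-class inhibitor of lysosomal cathepsins, had a change of 1.49 (adjusted p = 0.0963) and its neighbour Serpina3f a change of 1.72 (adjusted p = 0.16). In both genes the HFD libraries ranged widely, from 0.474 to 8.03 CPM for Serpina3g and from 0.105 to 6.35 CPM for Serpina3f. Serpina1b, a copy of alpha-1 antitrypsin, had a change of -0.64 (adjusted p = 0.265). The Serpina1a to Serpina1e copies share 7.6% to 50.5% of their 150-base windows with other serpin transcripts, so the values of single copies are uncertain.

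By position in the files, 23 clade A genes lay together on chromosome 12 between 103581045 and 104380588, 16 clade B genes on chromosome 13 between 33026075 and 34186777, and 12 clade B genes on chromosome 1 between 106788903 and 107538214. In the chromosome 13 cluster 6 of 8 tested genes rose on the high-fat diet. In the chromosome 1 cluster 2 of 3 rose (Serpinb8 and Serpinb12), and in the chromosome 12 cluster 0 of 15 rose and 2 fell. The share of calls over all genes and the limit set by the filter on low counts were given above, and no test of position was made.

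Promoter letters were looked at because the clade B genes moved together. RefSeq promoters (GRCm38.p6, 300 bases, 250 before and 50 after the start) matched 53 of the 63 serpins and 9 of the 11 that rose. The promoters of Serpinb1c (chr13:32898091-32898390, minus strand) and Serpinb12 (chr1:106934199-106934498, plus strand) are printed because they were the only 2 of the 9 with a TATAAA match, and capitals mark each motif match.
Serpinb1c: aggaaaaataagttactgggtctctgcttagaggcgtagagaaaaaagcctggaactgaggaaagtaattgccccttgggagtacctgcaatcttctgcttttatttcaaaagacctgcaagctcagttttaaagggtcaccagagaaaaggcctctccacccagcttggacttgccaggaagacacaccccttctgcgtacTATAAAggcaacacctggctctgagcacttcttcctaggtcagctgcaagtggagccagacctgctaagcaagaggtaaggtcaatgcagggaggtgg
Serpinb12: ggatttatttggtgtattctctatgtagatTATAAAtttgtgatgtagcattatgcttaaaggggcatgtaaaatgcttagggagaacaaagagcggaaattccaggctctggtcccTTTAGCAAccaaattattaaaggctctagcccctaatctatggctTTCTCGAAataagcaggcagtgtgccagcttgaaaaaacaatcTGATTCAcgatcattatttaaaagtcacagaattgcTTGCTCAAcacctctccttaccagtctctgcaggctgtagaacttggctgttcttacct
Both strands were searched, and matches that overlapped were each counted. In Serpinb1c the TATAAA lies 48 to 43 bases before the start. Serpinb12 holds TATAAA farther away, 220 to 215 bases before the start. It also holds a pair of C/EBP matches (TTGCNNAA), an AP-1 match (TGANTCA) and a heat shock element match (TTCNNGAA). The promoter of Serpinb9b held none of the 7 motifs. Among the 9 promoters of rising serpins, AP-1 and TATAAA matched 2 each, C/EBP, AGATAA (the motif of GATA factors) and the heat shock element 1 each, and the PU.1 core (AGGAAGT) and the E-box (CACGTG) 0. Over all 32851 RefSeq promoters the shares with a match were 7.8% for AP-1, 13.6% for TATAAA, 10.8% for C/EBP, 11.2% for the motif of GATA factors, 8.5% for the heat shock element, 9.4% for PU.1 and 7.2% for the E-box. A match is a run of letters and not a shown binding site.

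The genes that serpins act on or work with were described from lists of partners. Of 13 collagen folding partners of Serpinh1 9 rose and 0 fell on the high-fat diet, with a median log2 fold change of 0.62. Among them were Ppib, a prolyl isomerase of procollagen (0.82, SE 0.18), P4hb, a subunit of prolyl 4-hydroxylase (0.78, SE 0.18), and Plod1, a lysyl hydroxylase (0.84, SE 0.21). Of 10 papain-like cathepsins, the lysosomal cysteine proteases that Serpina3g can inhibit, 6 rose and 0 fell with a median of 1.97, led by Ctsk (4.34, SE 0.91), Ctsb (2.04, SE 0.43) and Ctsh (1.91, SE 0.41). Of 8 tested plasminogen activation genes 5 rose and 0 fell with a median of 1.00, among them Anxa2, which binds plasminogen at the cell surface (1.56, SE 0.34), the clearance receptor Lrp1 (1.13, SE 0.30) and Plau, the urokinase activator (1.40, SE 0.44). In these lists the direction was up for every called gene, beside 18.4% of all genes called higher.

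The other partner lists were mixed. Of 12 tested coagulation genes 5 rose and 2 fell (median 0.63), with F10 (3.48, SE 0.75), F7 (4.23, SE 0.92) and F9 (4.87, SE 1.20) the largest rises among the named ones. Of 8 complement C1 and contact system genes Bdkrb2, a bradykinin receptor, fell by 1.00 on the log2 scale (SE 0.30) and C1ra, a target of Serping1, rose (0.71, SE 0.24), with a list median of -0.06. Of 10 tested leukocyte serine proteases 1 rose, the mast cell chymase Cma1 (2.49, SE 0.99, adjusted p = 0.0494), with a median of 0.92. Of 10 tissue kallikreins 3 were tested and none was called in edgeR's quasi-likelihood test.

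The second question was whether SZ-A given on the high-fat diet changed the serpins. At 200 mg/kg/day 0 of 34 serpins were called against HFD, none had an unadjusted p under 0.05 in edgeR, and DESeq2 and limma also called 0. Over all genes 0.00989% were called higher and 0% lower at that dose. At 400 mg/kg/day Serpina1e, an alpha-1 antitrypsin copy, was called higher, beside 2.46% of all genes, and 0 were called lower, beside 0.406%. At 600 mg/kg/day 2 fell, Serpinb8 and Serpinh1, beside 6.47% of all genes, and 0 rose, beside 5.12%. Unadjusted p under 0.05 were 6 at 400 and 7 at 600 mg/kg/day. The median log2 change of clade B against HFD was -0.12, -0.70 and -0.69 at the 3 doses, beside 0.02, 0.05 and 0.06 over all genes, and 9, 10 and 9 of the 11 clade B genes had a negative sign. Of those 11 genes 0, 1 and 3 had an unadjusted p under 0.05 at the 3 doses in edgeR, and the signs were not tested. The comparisons at the 3 doses share the HFD libraries and are given side by side only.

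Serpinb8 had medians of 26.2 CPM in HFD, 17.3 at 200, 13.5 at 400 and 10.9 CPM at 600 mg/kg/day. At the highest dose it ranged from 4.45 to 17.6 CPM, and the range overlapped with that of HFD, 8.42 to 36.0 CPM. The log2 fold change of SZ-A 600 against HFD was -0.98 (SE 0.28, adjusted p = 0.0222), and -1.05 and -0.88 within the sets, of which the first was called. Serpinh1 had medians of 501 CPM in HFD, then 404, 320 and 303 CPM in dose order. At 600 mg/kg/day its range was 142.5 to 381 CPM against 356 to 631 CPM in HFD, which overlapped narrowly. The fold change was -0.72 (SE 0.21, adjusted p = 0.0249), and -0.63 and -0.87 within the sets, with the first called. Both calls were lost without SZ-A 600 6, the lowest library in both genes and a library with RNA of duct epithelium, where adjusted p rose to 0.0538 for Serpinb8 and 0.0623 for Serpinh1. Without all 4 libraries with RNA of other tissue both were called (-0.89, adjusted p = 0.0153, and -0.65, adjusted p = 0.019).

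Of the collagen folding partners of Serpinh1, 5 of 13 fell at 600 mg/kg/day with a median of -0.46. Plod1 fell by 0.70 (SE 0.20). Plasminogen activation, coagulation, complement and cathepsin lists had 1 gene lower each at that dose, and the other partner lists 0. Over all tested genes 6.47% were called lower at 600 mg/kg/day, and the median log2 change was 0.06. The summed fibroblast markers had a median of 1884 CPM at 600 mg/kg/day, against 4949 CPM in HFD, and the macrophage sums 2551 against 8581 CPM. Their part in the falls of Serpinb8 and Serpinh1 was not tested.

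**Figure D4:**
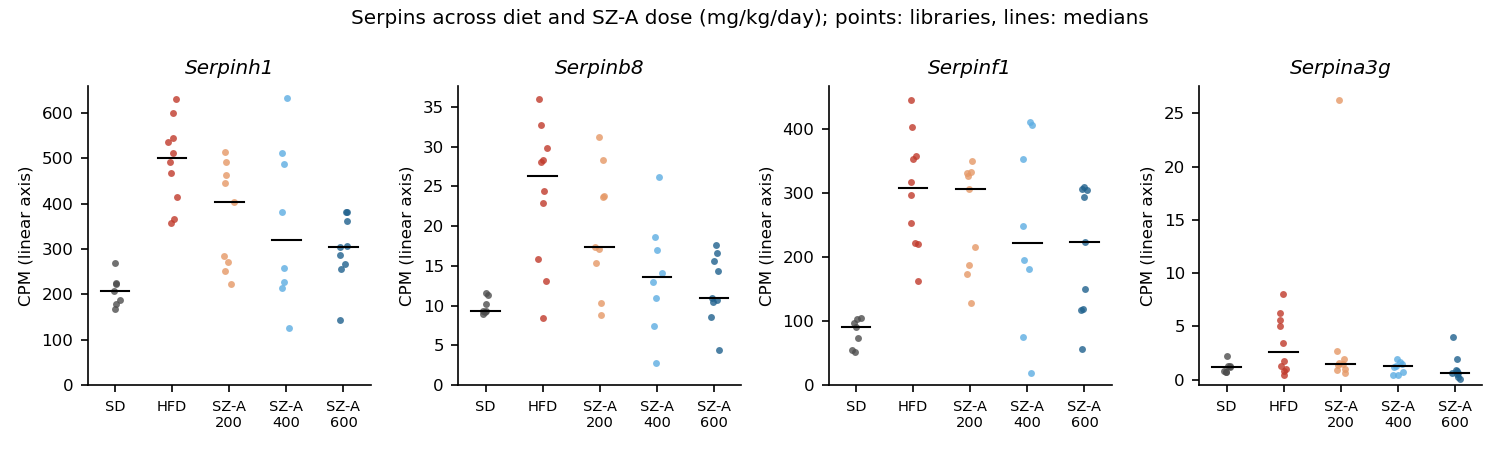
Serpinh1, Serpinb8, Serpinf1 and Serpina3g in CPM per library by group, with group medians as lines. Medians of Serpinh1 go from 501 in HFD to 303 CPM at 600 mg/kg/day and those of Serpinb8 from 26.2 to 10.9 CPM, whereas SZ-A 200 8 stands apart in Serpina3g at 26.3 CPM.

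The call of Serpina1e at 400 mg/kg/day came from a single library. SZ-A 400 3 held 50.4 CPM, the other 7 libraries of the group at most 0.835 CPM, and the HFD group had a median of 0.237 CPM. The log2 fold change was 4.59 (SE 1.14, adjusted p = 0.0189), and without SZ-A 400 3 it was -0.07 (adjusted p = 0.982). That library is the one with squamous markers. It also had the highest liver cell marker sum of its group, 71.1 CPM against a group median of 8.17 CPM. The part of either cell type in its Serpina1e level was not tested.

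The slope over the 4 high-fat groups, per step of 200 mg/kg/day, fell for 5 of 34 serpins and rose for 0, beside 7.86% of all genes lower and 6.82% higher; 9 had an unadjusted p under 0.05 in edgeR. Serpinb8 had a slope of -0.34 (SE 0.09, adjusted p = 0.0108), and it kept its call in all 36 fits that left out 1 library. Serpinh1 had a slope of -0.22 (SE 0.07, adjusted p = 0.0243), and of the fits that left out 1 library it lost its call in the one without SZ-A 600 6. Within the sets the slopes were -0.35 and -0.35 for Serpinb8 and -0.19 and -0.29 for Serpinh1. In set 2 alone none of the 5 slopes was called. Over the same slope 9 of 14 macrophage markers fell (median -0.48), 5 of 6 B and plasma cell markers (median -0.89) and 3 of 7 fibroblast markers (median -0.22). Their part in the 5 falling serpin slopes was not tested.

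Serpina3g had a slope of -0.68 (SE 0.21, adjusted p = 0.0261) and medians of 2.61, 1.43, 1.27 and 0.641 CPM from HFD to 600 mg/kg/day. Its call was lost without HFD 3 or SZ-A 600 6 (adjusted p up to 0.0584). Serpina3f had a slope of -0.84 (SE 0.28, adjusted p = 0.0412) with medians of 1.58, 0.495, 0.335 and 0.186 CPM, and its call was lost in 13 of 36 fits that left out 1 library. The 2 genes were both far above their group in SZ-A 200 8, at 26.3 and 20.1 CPM, the library with the highest B and plasma cell sum (500 CPM) and T and NK cell sum (64.6 CPM); the part of lymphocytes was not tested. Serpinb2 (PAI-2), an inhibitor of urokinase made by macrophages, had a slope of -1.40 (SE 0.44, adjusted p = 0.029) at very low levels. Its group medians were 0.243 CPM in HFD and 0.0618, 0.0407 and 0 CPM at the doses, with 7 of 9 libraries at 0 at 600 mg/kg/day, and 1 library, SZ-A 200 2, held 4.26 CPM. Its slope lost the call without SZ-A 600 6 (adjusted p 0.061), and Serpinb2 overlaps Serpinb10 on the same strand. Within the sets the slopes were -0.74 and -0.51 for Serpina3g, -0.98 and -0.53 for Serpina3f and -1.76 and -0.71 for Serpinb2.

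The third comparison set each SZ-A group against SD. At 200 mg/kg/day 10 serpins were higher and 2 lower (all genes 10.8% and 4.59%), at 400 mg/kg/day 7 higher and 3 lower (8.29% and 2.60%), and at 600 mg/kg/day 4 higher and 2 lower (2.01% and 1.36%). These share the SD libraries with the HFD comparison. Serpinb9b was above SD by 6.78 (SE 1.59), 6.99 (SE 1.61) and 6.82 (SE 1.59) on the log2 scale at the 3 doses, beside 6.79 in HFD, and its group medians were 9.25, 1.92 and 4.43 CPM. These sizes rested on single high libraries: the value at 200 mg/kg/day was 5.38 without SZ-A 200 7, that at 400 was 4.95 without SZ-A 400 2 and that at 600 was 6.21 without SZ-A 600 1, each still called. In set 1 alone and in set 2 alone Serpinb9b was not called at any of the doses. Serpinb1c was above SD by 5.22, 4.78 and 4.33, Serpinf1 by 1.66, 1.52 and 1.34, and Serping1 by 1.25, 1.10 and 1.10, all called. Serpinb1c at 400 mg/kg/day was 3.69 without SZ-A 400 2 and not called (adjusted p = 0.0635), and without SD 2 its values at the 3 doses were 6.44, 6.01 and 5.55. At 400 mg/kg/day Serpinb9b lost its call in 6 of 14 alternative analyses, and Serpinf1 and Serping1 in 5 of 14 each. The calls at 600 mg/kg/day were also fragile, here to leaving out 1 library. Serpinb1c lost its call in 11 of 16 fits that left out 1 library (SD 1, 3, 4, 5, 6 or 7, or SZ-A 600 1, 2, 3, 4 or 8), with values down to 3.82. Serpinf1 and Serping1 each lost it in 9 of 16 (SD 2, 3, 5, 6 or 7, or SZ-A 600 1, 2, 3 or 4), with values down to 1.24 and 0.97. Serpinh1 was above SD by 0.83 and 0.77 at the lower doses, both called, and by 0.52 at 600 mg/kg/day, not called. The call at 400 was lost without SD 3, 5 or 6 or SZ-A 400 2, 4 or 5 (0.60 at the lowest). Serpinb8 was called higher at 200 mg/kg/day only (0.97), which does not show that its difference from SD changed with dose, and lost that call without SD 3, 5 or 7 or SZ-A 200 2, 3, 4 or 7 (0.85 at the lowest).

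Among the 34 serpins tested, Serpinb9b and Serpinf1 were the only 2 whose SZ-A 200 libraries all stood above the SD libraries (1.12% of all genes). No serpin separated fully from SD at 400 mg/kg/day, where 0.272% of all genes lay fully above SD and 0.203% fully below, or at 600 mg/kg/day, with 0.312% and 0.440%. On the lower side, Serpina3k fell at the 3 doses, with log2 fold changes of -2.12, -2.06 and -2.32. Its call was lost without SD 1 or SD 2 at 200 mg/kg/day, in 8 of 15 fits that left out 1 library at 400 (SD 1, 2 or 6, or SZ-A 400 2, 3, 4, 6 or 8) and in 9 of 16 at 600 (SD 1, 2 or 6, or SZ-A 600 1, 2, 4, 5, 7 or 8). Serpina3j fell at 200 and 400 mg/kg/day, with -3.82 and -3.39. At 200 it was -2.77 and not called without SD 6 (adjusted p = 0.0938), and -5.21 without SZ-A 200 6. At 400 its call was lost in 9 of 12 alternative analyses, the DESeq2 Wald test and the set as a term among them, and in 11 of 15 fits that left out 1 library (all but SD 1, SD 4, SZ-A 400 1 and SZ-A 400 3), with values from -4.21 to -2.32. Serpinb2 fell by 5.01 at 600 mg/kg/day, a call that rested on SD 4, which held 4.22 CPM against at most 0.271 CPM in the other SD libraries; without SD 4 it was -1.89 (adjusted p = 0.427) and not called.

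**Figure D5:**
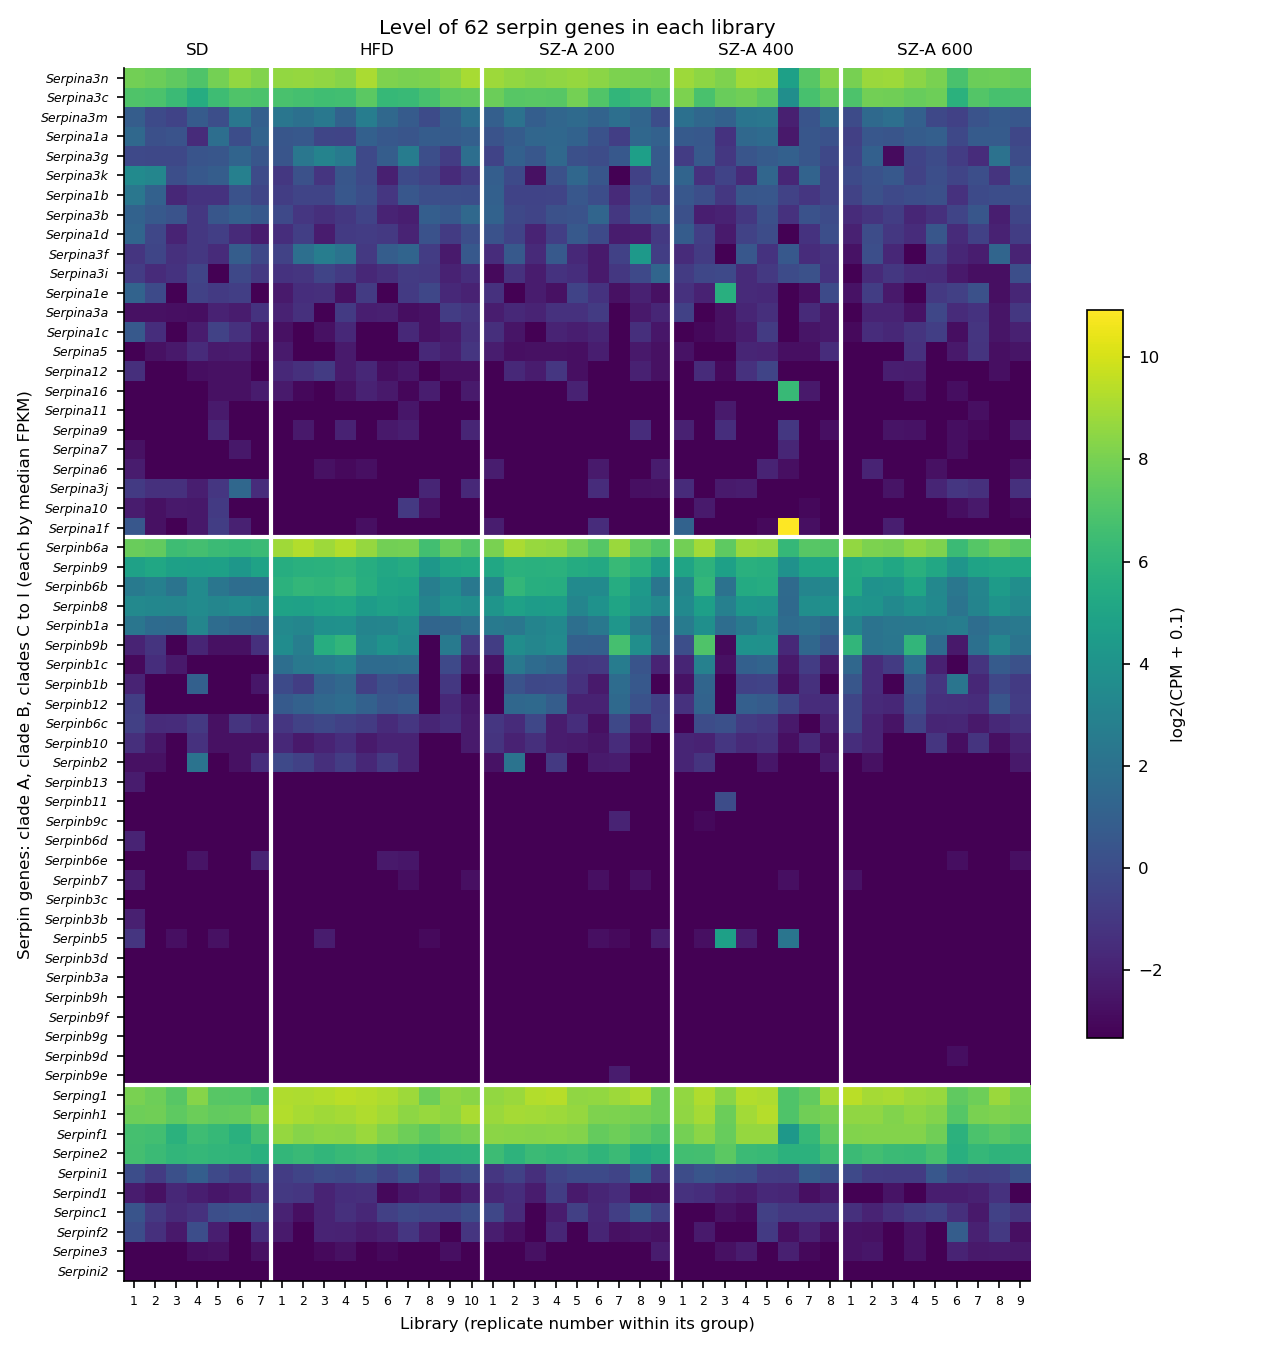
Log2(CPM + 0.1) of 62 of the 63 serpins (rows, by clade) in the 43 libraries (columns, by group). Serping1, Serpina3n and Serpinh1 are high throughout, several clade B rows are low in SD libraries, and isolated bright cells lie in SZ-A 400 3 and SZ-A 400 6.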

How the data were processed

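RNA of epididymal fat was sequenced as poly(A)-selected, dUTP-stranded libraries with 150 bp read pairs, per the labels' protocols. The authors deposited read counts per gene for the 43 libraries, used as deposited, and FPKM values per gene, used for levels between genes and, as log2 of the deposited FPKM plus 1 or 0.1, for alternatives. The submitters' processing notes name mm10; the coordinates in the files differ from GRCm38 positions, so those of genes are the files' own and RefSeq or GENCODE sequence is credited with its own build. Aligner and counter: not given in the sources used here. Per-sample value columns not used numbered 0.

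Groups and doses came from the labels. The members, lists, named genes and tests were chosen with earlier results of these data known. Counts of 20218 genes (filterByExpr) were tested with edgeR 4.0.16 in R 4.3.3 by a robust quasi-likelihood F test after TMM scaling, in a joint fit of the 43 libraries, with Benjamini-Hochberg adjustment over all tested genes and a call at adjusted p under 0.05. A standard error (SE) is the absolute log2 fold change divided by the square root of F. The dose trend is the slope of the 4 high-fat group means per 200 mg/kg/day. CPM are counts per 1e6 of the TMM-scaled total. The scripts were tested on simulated data.

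Serpins are named with values if called in HFD against SD, in a dose against HFD or in the trend, if among the 8 with the highest median FPKM, or if on a list (Serpinb9b, Serpinb1c, Serpina3n, Serpina12, Serpina1b, Serpinb1a, Serpinb2, Serpinb6a, Serpinb8, Serpinb9, Serpinc1, Serpind1, Serpine2, Serpinf1, Serpinf2, Serping1, Serpinh1 and Serpini1). The 5 untested serpins with the highest single library and up to 3 called genes of each partner list with the smallest p in HFD against SD are named too. Others were named after their values were seen. The values of 1 serpin are not reported here; counts and medians over the family include it.

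Alternatives were DESeq2 1.42.0 size factors and Wald test, limma 3.58.1 on log2 FPKM, other filters and thresholds, only the groups compared, the replicate number as a block, the library set as a term or alone, and leaving out libraries. Libraries were divided into sets at the largest gap in their share of small noncoding RNA counts. A library was held to contain RNA of other tissue if at least 100 genes reached 10 CPM and 20 times the median of all libraries (floor 0.05 CPM). Samples with the same replicate number were checked for pairing. In 48 of 79 pairs the correlation of deviations exceeded 0.1 (median 0.197, lowest -0.357). The median was -0.035 for pairs with other numbers, and 0.229 for those of them in the same library set. Most same-numbered libraries also lay in the same set, so the check shows no pairing beyond the sets and cannot exclude one. Coding sequences were compared with edlib 1.3.9.post1, and figures were drawn with matplotlib 3.10.9 in Python 3.11.15.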

Additional observations from a re-analysis of the deposited data

Results flagged for a closer look

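Single libraries that stood apart from the rest of their group were looked for in 125 combinations of 25 named serpins and 5 groups, on log2(CPM + 0.1), and 15 were found; chance gives about 5%. Of these 15, 8 came from the 4 libraries with RNA of other tissue. SZ-A 600 6 was the low library of its group for Serpina1b at 0.303 CPM (others 0.590 to 1.06), Serpinb9 at 17.1 CPM (others 31.1 to 51.9) and Serpinh1 at 142.5 CPM (others 257 to 381). SZ-A 400 6 was low for Serpina3c at 13.1 CPM (others 109 to 274) and Serpina3n at 27.2 CPM (others 149 to 489), and SZ-A 400 3 was high for Serpina1e at 50.4 CPM (others up to 0.835). SD 4 was low for Serpina3c at 45.3 CPM (others 82.7 to 129) and high for Serpinb2 at 4.22 CPM (others up to 0.271).

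SZ-A 200 8 was the high library of its group for Serpina3f at 20.1 CPM (others 0.102 to 1.5), Serpina3g at 26.3 CPM (others 0.618 to 2.67) and Serpini1 at 2.10 CPM (others 0.286 to 0.815). Serpinb2 stood at 4.26 CPM in SZ-A 200 2 (others up to 0.412). Serpina3j stood at 2.58 CPM in SD 6 (others 0.131 to 0.440) and at 0.254 CPM in SZ-A 200 6 (others up to 0.0549). Serpinb12 stood at 0.495 CPM in SD 1, where the other 6 SD libraries were at 0.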

How the results depend on the processing

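For the diet comparison, the 11 rises and 2 falls are the reference. In set 2 alone 2 rose and 0 fell, in set 2 without the libraries with RNA of other tissue (an alternative added after seeing the data) 0 fell, and in set 1 alone 7 fell. A filter of 1 CPM in 7 libraries left 1 fall, and a fit of only the groups compared left 1. In all other settings but the replicate block (below) the counts stayed within 1.5 times. Leaving out 1 library gave 9 to 12 rises and 2 to 4 falls, with 4 falls without HFD 10.

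Against HFD, the single call higher at 400 mg/kg/day was 0 with adjusted p under 0.01, the DESeq2 Wald test, limma on either FPKM scale, the stricter filter, only the groups compared, set 2 alone, set 2 without other tissue, all libraries without other tissue, and the set term without other tissue, and it was 4 without a filter. Serpina1e, the gene of that single call, was also not called in set 1 alone. Calls lower at 400 mg/kg/day numbered 1 with the set as a term and without SZ-A 400 2. At 200 mg/kg/day 1 was lower with the set term without other tissue. At 600 mg/kg/day the 2 falls became 4 by the DESeq2 Wald test, with the set as a term and with the set term without other tissue, 9 in set 1 alone (with 1 rise), and 0 in set 2 alone, in set 2 without other tissue and with adjusted p under 0.01. The 5 falling slopes became 2 or 3 by limma on log2(FPKM + 1) or log2(FPKM + 0.1), and 0 in set 2 alone, in set 2 without other tissue and with adjusted p under 0.01; 2 slopes rose in set 1 alone. Leaving out 1 library gave 0 to 1 higher and 0 to 1 lower at 400 mg/kg/day (0 higher without SZ-A 400 3), 0 to 4 lower at 600 (0 without SZ-A 600 6, 4 without SZ-A 600 8), and 1 to 5 falling slopes (1 without SZ-A 600 6, 3 without HFD 3), and 0 calls at 200 mg/kg/day.

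Against SD, set 2 alone and set 2 without other tissue gave 0 higher and 0 lower at each dose. Adjusted p under 0.01 left 4, 1 and 0 higher and 0 lower at 200, 400 and 600 mg/kg/day. Set 1 alone gave 3, 4 and 2 higher. Only the groups compared gave 0 lower at 200 and 0 higher and 0 lower at 400. At 200 the stricter filter left 1 lower. At 400, limma on either scale left 0 higher, no filter and all libraries without other tissue left 0 lower, and the set term with or without other tissue left 1 lower. At 600, no filter gave 1 higher and 0 lower, the stricter filter 1 lower, the DESeq2 Wald test 4 lower, limma on log2(FPKM + 1) 1 higher and 1 lower, and limma on log2(FPKM + 0.1) 2 higher and 1 lower. Leaving out 1 library gave 9 to 11 higher and 1 to 2 lower at 200 (1 without SD 1, SD 2 or SD 6), 3 to 9 higher and 0 to 3 lower at 400 (3 higher without SZ-A 400 2, 4 without SD 3, SD 5, SD 6, SZ-A 400 4 or SZ-A 400 5; 0 or 1 lower without SD 2, SD 5, SD 6, SD 7 or SZ-A 400 2, 3, 4, 5, 6 or 8), and 1 to 4 higher and 0 to 2 lower at 600, where the higher count was 1 or 2 without SD 2, SD 3, SD 5, SD 6, SD 7 or SZ-A 600 1, 2, 3 or 4, and the lower count 0 or 1 without any of the 16 libraries but SZ-A 600 6 and SZ-A 600 9. The cause of these shifts was not tested. A fit within a set also holds fewer libraries than the joint fit, and the part of that was not separated from the set itself.

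With the replicate block, which the pairing check does not support, the counts lower were 4 (HFD against SD), 1 with 0 higher (SZ-A 400 against HFD), 5 (SZ-A 600 against HFD) and 8 with 1 higher (slopes), and 8 were higher at 600 mg/kg/day against SD.

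Among genes and comparisons called in the joint fit, the sign turned in 4 alternative values. Serpina1e at 400 mg/kg/day against HFD was -0.074 by the DESeq2 Wald test, -0.033 in set 2 alone and -0.072 without SZ-A 400 3 (up to 4.92 without other single libraries). Serpinh1 at 400 mg/kg/day against SD was -0.016 in set 2 alone. Sign changes of values called in neither fit are not listed. Serpins under about 1 CPM, such as Serpina3j, Serpinb2 and Serpinb12, rest on few reads and their fold changes are imprecise at this depth.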
